A study of Mus musculus with 10 samples.

Results

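The proteasome genes described here are those whose mouse symbol is Psma, Psmb, Psmc, Psmd, Psme, Psmf or Psmg followed by a digit, with Psmc3ip, which encodes a recombination cofactor, left out by the same rule. The array annotation holds 48 such genes. Of these, 47 have a probe set assigned to their symbol alone, out of 18194 genes with such a probe set in all, and all 47 passed the filter on low values. Psme2 shares its probe set with Psme2b, and its signal was not analysed here. Of the 47 genes, 4 are interferon-inducible (Psmb8, Psmb9, Psmb10 and Psme1), and the other 43 are called constitutive here. The rule itself uses symbols and no measured values, though it was set with earlier results of these arrays known.

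RNA from sorted splenic B cells was hybridized to 10 Affymetrix whole-genome mouse arrays, 1 sample to an array. Germinal centre (GC) B cells came from Balb/c background mice of the lines B1-8 (VH186.2-Tg JH KO, n = 3) and V23 (V23-Tg JH KO, n = 3). Each line carries a transgenic immunoglobulin heavy chain allele, and in both the endogenous JH locus is deleted. These mice had received 50 µg of NP-CGG, a hapten on a carrier protein, in alum by the intraperitoneal route, and cells positive for λ light chain, peanut agglutinin and B220 were sorted on day 14. Naive B cells (n = 4) came from unimmunized Balb/c mice, for which no transgene is stated. How the naive cells were gated is not stated in the labels. Immunization and heavy chain allele therefore changed together between GC and naive cells, the sort gate may have changed too, and these cannot be told apart. Whether replicates are separate animals is not stated in the labels, so the p-values cover the spread among these 10 samples, which may be technical.

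The proteasome is the protease that degrades ubiquitin-tagged proteins in the cytosol and nucleus. Its core particle stacks outer rings of alpha subunits on inner rings of beta subunits, and 3 beta subunits of each inner ring carry the active sites. A regulatory particle caps the core, where ATPases unfold the substrate and non-ATPase subunits bind and remove its ubiquitin chain. In lymphoid cells and under interferon, Psmb8, Psmb9 and Psmb10 take the places of the catalytic subunits Psmb5, Psmb6 and Psmb7, which gives the immunoproteasome, known for making peptides that are presented on MHC class I.

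Values are deposited log2 probe set signals, scaled so that every array has the same trimmed mean signal. "Higher" therefore means higher against each array's common scale. The RNA content of a cell was not measured, and in these bulk samples fewer cells of a type and less RNA per cell cannot be told apart. The groups also differed in other respects. The 3′ minus 5′ difference of the Actb control probe sets, a measure of RNA integrity, was 0.81 to 1.19 in GC B1-8, 0.71 to 0.87 in GC V23 and 1.27 to 1.65 in naive samples. For the Gapdh control probe sets it was 0.105 to 0.407 in GC B1-8, −0.03 to 0.181 in GC V23 and 0.306 to 0.665 in naive samples, so that GC B1-8 overlapped naive. With both lines combined, all of 7 measured GC B cell markers were called higher in GC cells, and all 5 measured follicular markers were called lower, so the cells carry the markers of their labels. All 8 neutrophil markers were called higher in GC cells as well, with a mean log2 signal over the list of 11.7 to 12.0 in GC B1-8, 11.2 to 11.9 in GC V23 and 7.66 to 9.82 in naive samples. Naive replicate 4 had the highest neutrophil mean of the naive samples (9.82), and naive replicate 2 the highest GC marker mean (10.4). B cell markers averaged 12.9 to 13.2 in GC B1-8, 12.6 to 13.0 in GC V23 and 13.3 to 13.5 in naive samples. Of 6 handling stress genes, 3 were called lower in GC cells and none higher, and their mean was 8.66 to 8.83 in GC B1-8, 8.68 to 9 in GC V23 and 8.89 to 10.48 in naive samples. Of 5 plasma cell markers, 2 were called higher (Jchain and Xbp1) and 1 lower (Irf4), and Prdm1 and Sdc1 were not called. Jchain was at 13.7 to 13.9 in both GC lines and 10.8 to 12.5 in naive samples, and Xbp1 rose by 0.28 on the log2 scale. Irf4 was at 8.95 to 9.31 in GC B1-8, 9.05 to 9.46 in GC V23 and 11.03 to 11.2 in naive samples. The part of RNA integrity, of handling stress and of neutrophil or other non-B-cell RNA in the results below was not tested. Without naive replicates 2 and 4, 30 of the 47 proteasome genes were called higher in both GC lines combined, and none lower. Over all 17204 genes, 3108 were called higher and 2791 lower in that setting. The naive samples that remain had neutrophil means of 8.08 and 7.66, farther from the GC samples. That setting therefore does not test the part of neutrophil RNA.

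Most proteasome genes were higher in germinal centre B cells. In GC B1-8 against naive cells, 30 of 47 were called higher and 1 lower, with a median log2 fold change of 0.48, that is 1.40-fold. In GC V23 against naive cells 34 were called higher and none lower (median 0.54, 1.45-fold). With both GC lines combined, 33 were called higher and 1 lower (median 0.51). A call is an adjusted p under 0.05 in limma's moderated test after Benjamini-Hochberg adjustment over 17204 genes. Over all genes tested, 16.4% were called higher and 17.3% lower in GC B1-8, 18.2% higher and 19.7% lower in GC V23, and 20.5% higher and 21% lower in both lines together. The median over all genes lay at 0.05, 0.06 and 0.06 in the same comparisons. Both lines were set against the same 4 naive samples, so their counts are not independent of each other.

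**Figure D1:**
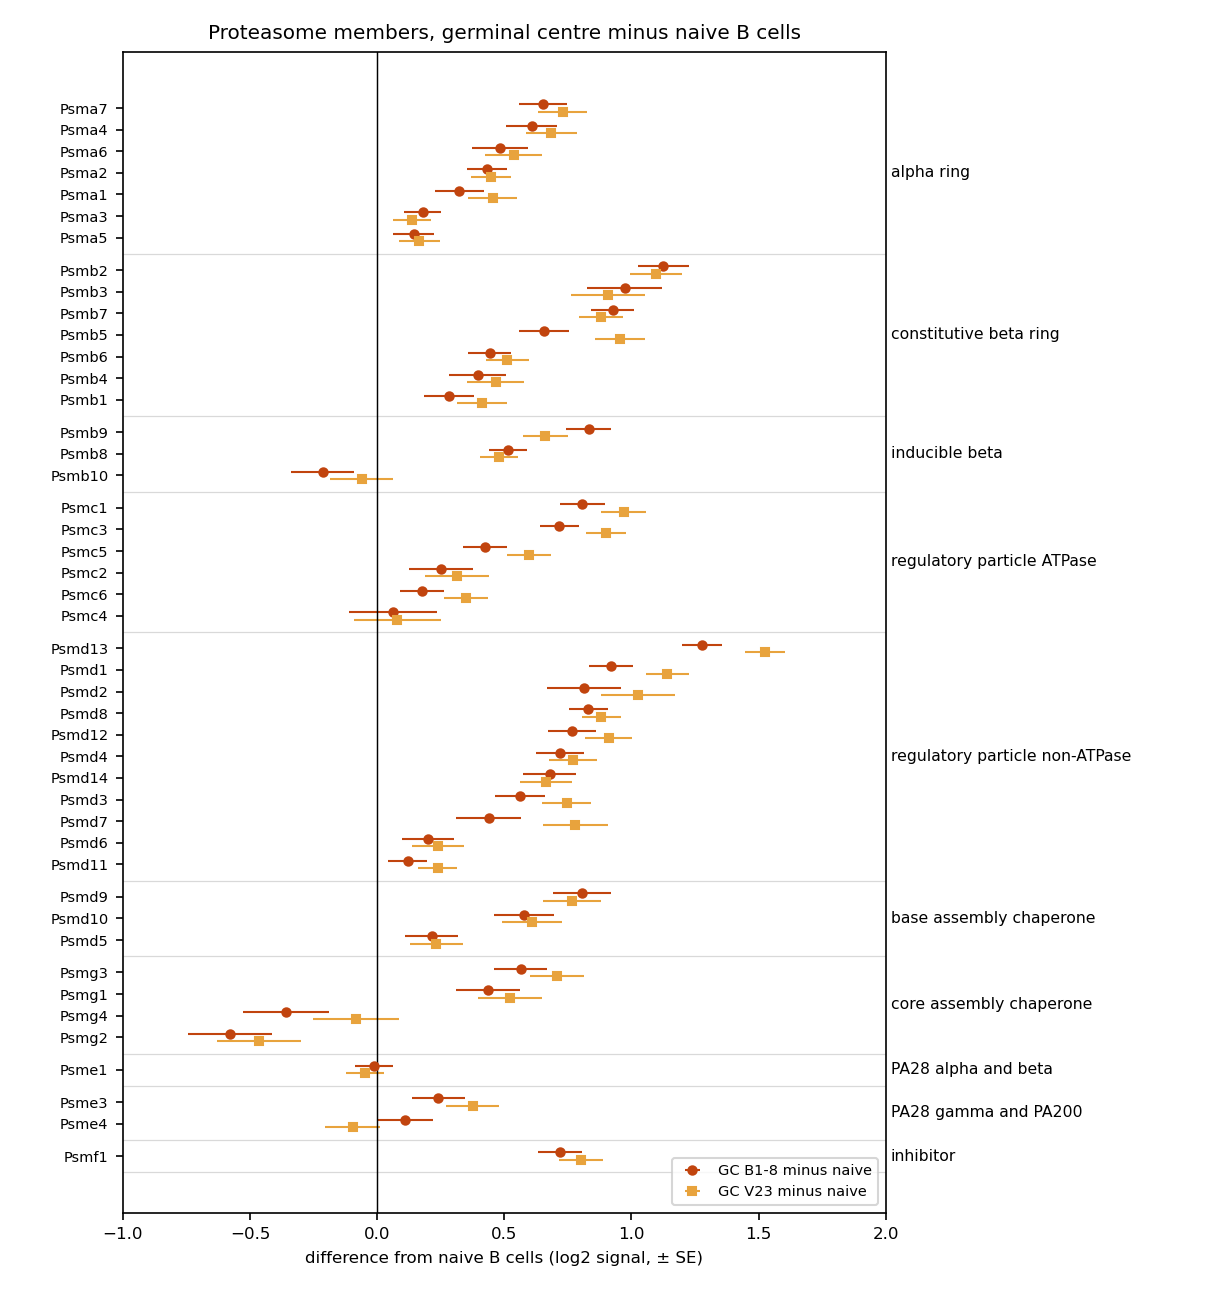
Difference from naive B cells (log2 signal, points, with bars for ± standard error) of 45 proteasome genes, grouped by role, for GC B1-8 minus naive (circles) and GC V23 minus naive (squares). Nearly all points lie to the right of 0. Psmd13 lies farthest right in both lines, and Psmg2, Psmg4, Psmb10 and Psme1 lie left of 0 in both. The dim genes Psma8 and Psmb11 are not drawn.

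The 31 subunits that build the constitutive core and regulatory particle had positive log2 fold changes in both lines on their brightest probe sets without exception, from 0.07 (Psmc4) to 1.40 (Psmd13) with the lines combined. Of these, 25 were called higher and 6 were not called (Psma3, Psma5, Psmc2, Psmc4, Psmd6 and Psmd11). For 27 of the 31, every GC sample was above every naive sample, and over all 47 genes GC and naive samples did not overlap in 36. Among all genes tested, 35.5% had no such overlap. The mean log2 signal over the 31 subunits was 12.1 to 12.2 on the GC B1-8 arrays, 12.2 to 12.3 on the GC V23 arrays and 11.5 to 11.6 on the naive arrays. The median residual SD of these bright probe sets was 0.097, against 0.276 over all genes.

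**Figure D2:**
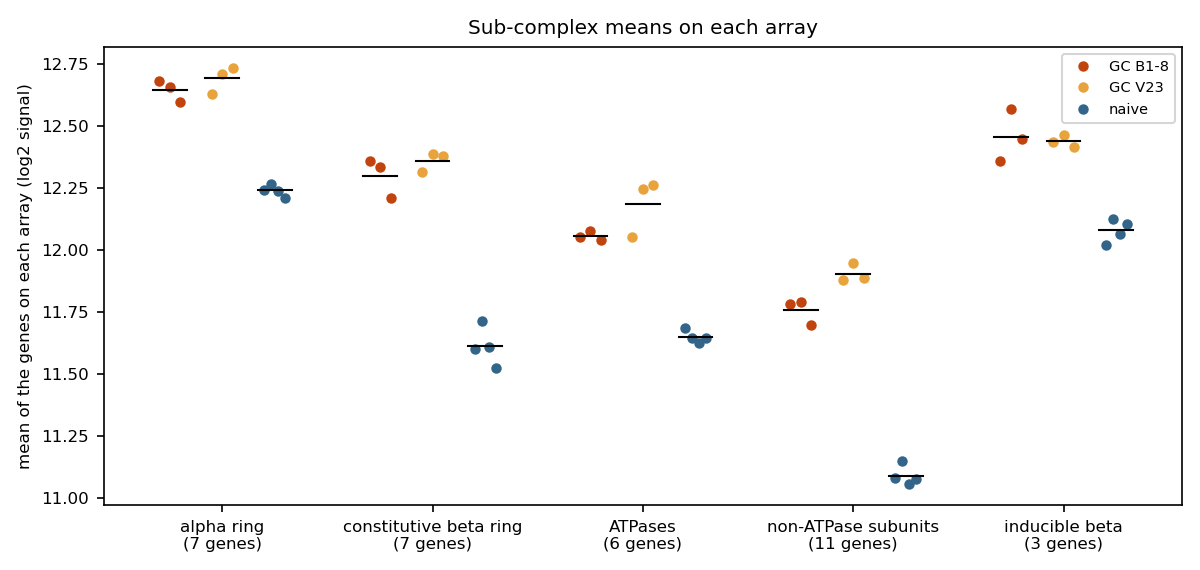
Mean log2 signal (y axis) over the genes of each sub-complex on each of the 10 arrays (points), for GC B1-8, GC V23 and naive B cells; horizontal bars are group means. In every sub-complex the 6 GC arrays lie above the 4 naive arrays; heights of different sub-complexes come from different probes and are not comparable.

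All 7 constitutive beta subunits were called higher in GC cells, with a median log2 fold change of 0.81 in both lines together. On the brightest probe sets, Psmb2, a structural beta subunit, rose most. It had log2 signals of 11.83, 11.68 and 11.62 in GC B1-8 and 11.61, 11.81 and 11.62 in GC V23, against 10.52, 10.71, 10.48 and 10.62 in naive samples (probe set 1448262_at). All 6 GC samples lay above all naive samples, by 1.13 ± 0.10 (log2, SE) in GC B1-8 and 1.10 ± 0.10 in GC V23, with adjusted p of 7.8e-05 and 6.4e-05. Psmb3, another structural beta subunit, had 12.47, 12.38 and 12.02 in GC B1-8 and 12.39, 12.17 and 12.12 in GC V23, against 11.38, 11.51, 11.27 and 11.10 in naive samples, a 1.92-fold difference for both lines together (adjusted p = 0.00034). Its second bright probe set (1417052_at) was higher by 1.57, so that with probe sets averaged Psmb3 was at 1.26 and Psmb2 at 1.11. Psmb1 and Psmb4 rose less, by 0.35 and 0.43 on the log2 scale. The call of Psmb1 was lost with quantile normalization (adjusted p = 0.076), and that of Psmb4 without naive replicates 2 and 4 (0.054).

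The catalytic constitutive subunits rose too. Psmb5 carries the chymotrypsin-like site, Psmb6 the caspase-like site and Psmb7 the trypsin-like site. Psmb5 had log2 signals of 11.80, 11.80 and 11.67 in GC B1-8 and 11.93, 12.04 and 12.18 in GC V23, against 11.01, 11.18, 11.20 and 11.01 in naive samples (1415676_a_at). The difference from naive was 0.66 ± 0.10 in GC B1-8 and 0.95 ± 0.10 in GC V23 (adjusted p of 0.0011 and 0.00012). Psmb6 had 11.75, 11.67 and 11.58 in GC B1-8 and 11.67, 11.69 and 11.84 in GC V23, against 11.16, 11.24, 11.25 and 11.23 in naive samples (1448822_at). Its rise was the smallest of the 3 catalytic subunits, at 0.44 ± 0.08 in GC B1-8 and 0.51 ± 0.08 in GC V23 (adjusted p of 0.0037 and 0.0015). Psmb7 had 13.21, 13.23 and 13.01 in GC B1-8 and 13.12, 13.08 and 13.11 in GC V23, against 12.17, 12.30, 12.24 and 12.17 in naive samples (1416240_at). It was 1.90-fold higher in GC B1-8 and 1.84-fold higher in GC V23 (adjusted p of 9.0e-05 and 8.5e-05). For none of the 3 did any GC sample overlap a naive one.

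The alpha ring, whose subunits gate the entry to the core, moved less on its brightest probe sets. Its median log2 fold change was 0.44 in both lines together. Of 7 subunits, 5 were called higher, led by Psma7 at 0.69 ± 0.08 and Psma4 at 0.65 ± 0.08. Psma3 (0.16, adjusted p = 0.072) and Psma5 (0.16, adjusted p = 0.11) were not called. A further bright probe set of Psma5 (1424681_a_at) did not overlap, at 11.19 to 11.4 in GC and 10.69 to 10.88 in naive samples. The dim one of Psma5 (1454940_at) averaged 4.31 in GC and 6.33 in naive samples. The germ line alpha subunit Psma8 was dim, at 5.64, 4.29 and 1.93 in GC B1-8 and 5.62, 5.30 and 5.50 in GC V23, against 6.23, 5.78, 5.03 and 6.02 in naive samples, and its difference of −1.05 ± 0.63 was not called (adjusted p = 0.22). The thymic beta subunit Psmb11 was also dim, with means of 6.01 in GC B1-8, 5.02 in GC V23 and 4.82 in naive samples, and was not called (0.70 ± 0.49, adjusted p = 0.31). Leaving out 1 sample brought each below the threshold: GC B1-8 replicate 1 for Psma8 (adjusted p = 0.043) and naive replicate 2 for Psmb11 (adjusted p = 0.048).

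In the regulatory particle, 13 of 17 subunits were called higher in both GC lines together. Among the 11 non-ATPase subunits 9 were called, with a median of 0.75, and Psmd13, a subunit of the lid, had the highest log2 fold change of all 47 genes. Its log2 signals were 11.12, 11.10 and 11.11 in GC B1-8 and 11.45, 11.31 and 11.31 in GC V23, against 9.77, 9.92, 9.83 and 9.80 in naive samples (1422459_a_at). This was 2.43-fold higher in GC B1-8 and 2.88-fold higher in GC V23 (adjusted p of 1.7e-05 and 5.7e-06). Of its 3 further probe sets, the bright one (1437220_x_at) differed by 0.91 on the log2 scale, while the dimmer ones averaged 8.05 in GC and 8.05 in naive samples (1447843_at) and 6.47 in GC and 7.21 in naive samples (1445729_at). With all 4 averaged, the log2 difference was 0.43 in GC B1-8 (adjusted p = 0.039) and 0.36 in GC V23 (0.065). Psmd1, a large scaffold subunit of the base, had 11.73, 11.71 and 11.62 in GC B1-8 and 11.90, 11.94 and 11.88 in GC V23, against 10.8, 10.87, 10.64 and 10.76 in naive samples, 2.04-fold for both lines together (adjusted p = 1.1e-05). Its partner scaffold Psmd2 rose by 0.92 ± 0.12. The ubiquitin receptor Psmd4 rose by 0.74 ± 0.08, and the deubiquitinase Psmd14 by 0.67 ± 0.09. Psmd6 (0.22) and Psmd11 (0.18) were not called, with adjusted p of 0.077 and 0.053.

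The 6 ATPases, which form the motor ring of the base, were less uniform: 4 were called, with a median of 0.40. Psmc1 (0.89 ± 0.07) and Psmc3 (0.81 ± 0.07) rose most, and Psmc5 (0.51) and Psmc6 (0.26) less. The call of Psmc6 was lost under 5 alternatives, among them without naive replicate 3 (adjusted p = 0.057). On its brightest probe set Psmc4 lay within the spread of the groups, at 12.14, 12.29 and 12.54 in GC B1-8 and 12.02, 12.48 and 12.51 in GC V23, against 12.34, 12.00, 12.50 and 12.19 in naive samples. Its difference was 0.07 with a 95% confidence interval of −0.26 to 0.40. On its other probe set (1416291_at) the groups did not overlap, at 11.63 to 11.94 in GC and 10.93 to 11.14 in naive samples.

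Chaperones of the regulatory particle base showed the same direction: Psmd9 rose by 0.79 and Psmd10 by 0.59 (both lines together), and Psmd5 (0.22) was not called. Of the chaperones that assemble the core, Psmg1 (0.48) and Psmg3 (0.64) rose. Psmg2, which forms a dimer with Psmg1, was the only one of the 47 genes called lower. It had 10.43, 10.64 and 10.73 in GC B1-8 and 10.33, 11.06 and 10.76 in GC V23, against 11.17, 11.11, 11.28 and 11.16 in naive samples (1448212_at), all GC samples lying below all naive ones. It fell by 0.52 ± 0.14 on the log2 scale in both lines together (adjusted p = 0.016), by 0.58 in GC B1-8 (adjusted p = 0.026), and had a difference of −0.46 in GC V23, which was not called (adjusted p = 0.056). This call was close to the threshold: with both lines together it was lost when all probe sets of the gene were averaged (−0.30, adjusted p = 0.078), with median centring (0.058) and without naive replicates 2 and 4 (0.070). In GC B1-8 alone it was also lost without any of naive replicates 1 and 3 or GC B1-8 replicates 1 and 2 (adjusted p of 0.055, 0.064, 0.093 and 0.063), and in GC V23 it was gained without replicate 2 (0.014). Psmg4, the partner of Psmg3, had 9.92, 10.03 and 9.30 in GC B1-8 and 10.04, 9.94 and 10.08 in GC V23, against 10.03, 10.02, 10.17 and 10.21 in naive samples, and was not called (−0.22 ± 0.14, adjusted p = 0.26). Psmf1, an inhibitor of the core, rose 1.70-fold (adjusted p = 5.7e-05).

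The inducible subunits did not move as a unit. Psmb8 (LMP7) and Psmb9 (LMP2) were higher in GC cells, whereas Psmb10 (MECL-1) and Psme1 were not called. Psmb8 had log2 signals of 13.07, 13.07 and 13.05 in GC B1-8 and 13.01, 13.10 and 12.97 in GC V23, against 12.48, 12.61, 12.55 and 12.55 in naive samples (1422962_a_at). The rise was 0.52 ± 0.075 in GC B1-8 and 0.48 ± 0.075 in GC V23 (adjusted p of 0.00093 and 0.0011). Psmb9 had 12.72, 12.82 and 12.70 in GC B1-8 and 12.56, 12.64 and 12.52 in GC V23, against 11.86, 12.01, 11.80 and 11.99 in naive samples (1450696_at). It was 1.78-fold higher in GC B1-8 and 1.58-fold higher in GC V23 (adjusted p of 0.00017 and 0.00045). Psmb10 had 11.28, 11.81 and 11.59 in GC B1-8 and 11.73, 11.65 and 11.76 in GC V23, against 11.72, 11.76, 11.85 and 11.78 in naive samples (1448632_at). The groups overlapped, and the difference in both lines together was −0.14 with a 95% confidence interval of −0.38 to 0.10 (adjusted p = 0.34).

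Within each exchange pair the inducible and the constitutive gene changed by unequal amounts. The signals of different probes are not comparable as levels, so only the change of the difference between the 2 genes is read here, by a two-sided exact permutation test of 6 GC against 4 naive samples (210 splits) with adjustment over the 3 pairs. Psmb10 minus Psmb7 was −1.93 to −1.42 in GC B1-8 and −1.43 to −1.35 in GC V23, against −0.54 to −0.40 in naive samples. The ratio of Psmb10 to Psmb7 signal in GC cells was thus 0.486 of that in naive cells, a log2 change of −1.04 (exact permutation p = 0.0048, the smallest these splits allow, adjusted 0.014). Psmb8 minus Psmb5 was 1.27 to 1.39 in GC B1-8 and 0.79 to 1.08 in GC V23, against 1.35 to 1.54 in naive samples, a change of −0.31 (exact permutation p = 0.029, adjusted 0.033). GC V23 lay apart from naive and GC B1-8 overlapped it. Psmb9 minus Psmb6 moved the other way, at 0.97 to 1.15 in GC B1-8 and 0.68 to 0.95 in GC V23, against 0.54 to 0.77 in naive samples, a change of 0.27 (exact permutation p = 0.033, adjusted 0.033). Here GC B1-8 lay apart from naive and GC V23 overlapped it. The call of Psmb8 minus Psmb5 was lost without naive replicate 1, 2 or 4, GC B1-8 replicate 1 or GC V23 replicate 2, and that of Psmb9 minus Psmb6 without any 1 naive sample, GC B1-8 replicate 1 or 3 or GC V23 replicate 2. Both were lost with all probe sets averaged (−0.18 and 0.27, adjusted p of 0.18 and 0.05); Psmb9 and Psmb6 have 1 probe set each, and their adjusted p moved through the adjustment over the 3 pairs. Without naive replicates 2 and 4 no pair was called, and Psmb10 minus Psmb7 had an adjusted p of 0.107 at a change of −1.06; the 28 splits that remain allow no exact p under 0.036.

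**Figure D3:**
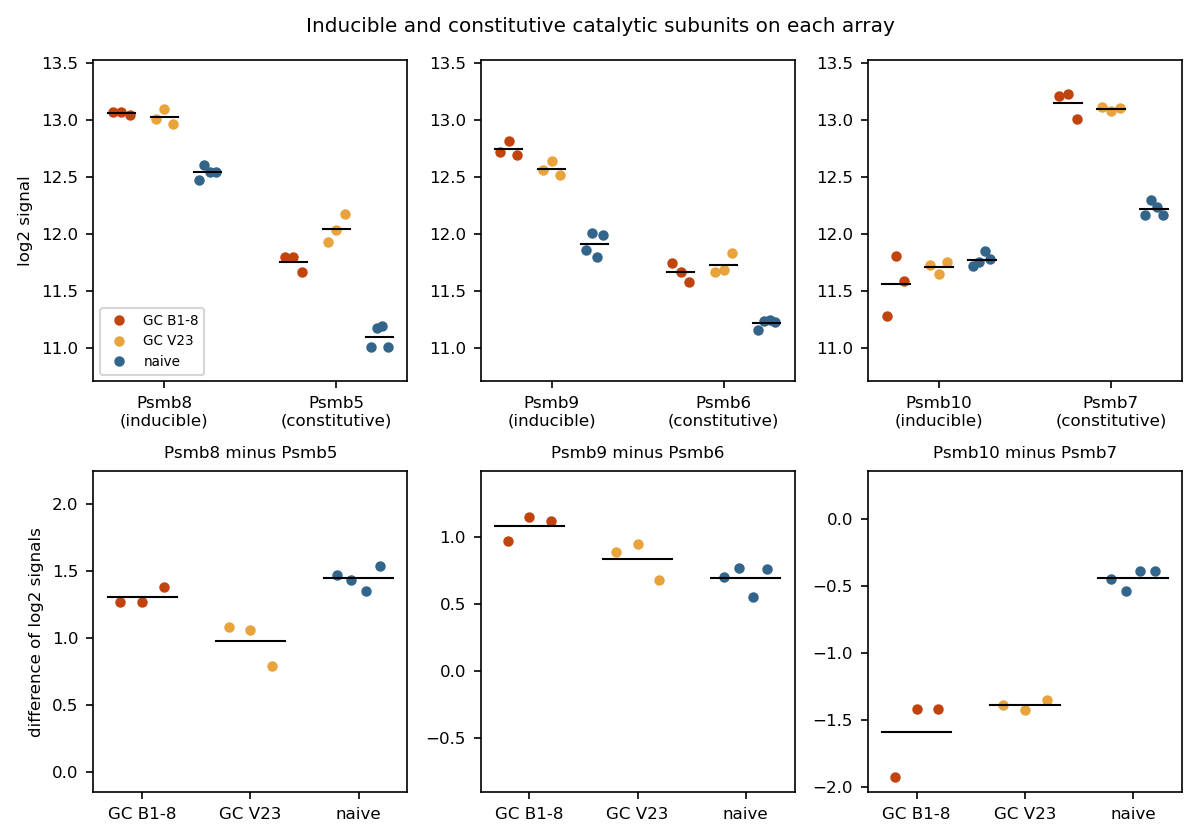
Upper row: log2 signal of each inducible catalytic subunit and its constitutive counterpart on each array (points), with group means (bars), for GC B1-8, GC V23 and naive B cells. Lower row: the difference of the 2 log2 signals on each array. Psmb10 minus Psmb7 is at or below −1.35 on all GC arrays and at or above −0.54 on all naive arrays; the groups lie closer together for the other pairs.

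The upstream regions of Psmb5 and Psmb8 and of Psmb6 and Psmb9 are shown because the subunits of a pair are known to answer to different factors, the inducible genes to STAT and IRF proteins and the constitutive genes to NFE2L1 and NFE2L2. RefSeq (GRCm38.p6) windows from 250 bases before to 50 after the transcription start were searched on both strands for GAAANNGAA (core of the interferon-stimulated response element), TTCNNNGAA (STAT site), TGACNNNGC (core of the antioxidant response element, read by NFE2L1 and NFE2L2) and CCAAT. Windows were found for 40 of the 48 genes. The window of Psmb10 held no match of any of the motifs, and Psmb7 had no window. In each of the following 4 windows, printed 5′ to 3′ on the gene's strand, capitals mark the only match, and matches of different motifs do not overlap. Psmb5 lies at chr14:54617946-54618245 on the minus strand and holds the antioxidant core 47 bases before the start. Psmb6 lies at chr11:70525107-70525406 on the plus strand and holds it 9 bases before the start.
Psmb5: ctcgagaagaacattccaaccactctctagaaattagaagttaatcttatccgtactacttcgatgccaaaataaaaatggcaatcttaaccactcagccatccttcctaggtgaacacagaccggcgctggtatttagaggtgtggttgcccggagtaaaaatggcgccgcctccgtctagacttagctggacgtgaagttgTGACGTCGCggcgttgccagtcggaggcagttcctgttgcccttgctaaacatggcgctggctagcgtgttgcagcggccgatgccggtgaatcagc
Psmb6: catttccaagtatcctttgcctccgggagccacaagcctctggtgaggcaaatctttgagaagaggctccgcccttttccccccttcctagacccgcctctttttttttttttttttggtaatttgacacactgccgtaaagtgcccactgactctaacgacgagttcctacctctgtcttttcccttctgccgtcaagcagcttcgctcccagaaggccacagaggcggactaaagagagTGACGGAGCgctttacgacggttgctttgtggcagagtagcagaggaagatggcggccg
Psmb8 lies at chr17:34197945-34198244 on the plus strand with a STAT site 97 bases before the start, and Psmb9 at chr17:34187281-34187580 on the minus strand with a CCAAT box that reads ATTGG on the gene's strand, 8 bases before the start.
Psmb8: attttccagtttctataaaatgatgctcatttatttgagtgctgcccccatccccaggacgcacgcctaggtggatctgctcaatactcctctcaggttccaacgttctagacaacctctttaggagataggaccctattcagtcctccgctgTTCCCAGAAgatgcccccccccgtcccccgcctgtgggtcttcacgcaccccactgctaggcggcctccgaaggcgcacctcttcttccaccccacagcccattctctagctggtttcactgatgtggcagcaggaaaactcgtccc
Psmb9: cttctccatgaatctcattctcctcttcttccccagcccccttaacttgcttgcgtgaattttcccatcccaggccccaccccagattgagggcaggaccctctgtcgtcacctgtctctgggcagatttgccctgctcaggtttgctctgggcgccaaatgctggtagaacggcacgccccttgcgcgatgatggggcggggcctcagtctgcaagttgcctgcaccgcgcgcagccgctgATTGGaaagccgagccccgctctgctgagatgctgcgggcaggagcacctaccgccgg
The start of Psmb9 is 226 bases from that of Tap1, a peptide transporter gene on the opposite strand, and their windows share 275 bases. The antioxidant core was present in 14.8% of 27 windows of constitutive subunits and in none of 6 windows of inducible genes (2 of them overlapping windows of Psme2), against 12.4% of all 32851 windows. The STAT site was present in 3.7% of constitutive and 16.7% of inducible windows, against 8.3% of all windows. The interferon-response core was present in 14.8% and 16.7%, against 8.56%. CCAAT was present in 37.0% and 16.7%, against 37.4%. A match describes the letters in these windows and is not a measured binding site.

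The activators that open the core were not raised together. Psme1, the alpha chain of the interferon-inducible activator PA28, was level across the groups, at 13.15, 13.19 and 13.13 in GC B1-8 and 13.13, 13.13 and 13.11 in GC V23, against 13.12, 13.19, 13.12 and 13.25 in naive samples (1417056_at). Its difference was −0.03, with a 95% confidence interval of −0.17 to 0.11 (adjusted p = 0.75). Psme3, the nuclear PA28 gamma, had 11.17, 11.30 and 11.17 in GC B1-8 and 11.16, 11.56 and 11.32 in GC V23, against 10.96, 10.99, 10.95 and 10.98 in naive samples (1418078_at), every GC sample lying above every naive one. It rose by 0.31 ± 0.09 in both lines together (adjusted p = 0.021), while the 0.24 in GC B1-8 alone was not called (0.11). Leaving out naive replicate 1 (0.054), 3 (0.056) or the pair 2 and 4 (0.094) ended the call for both lines. Psme4, the activator PA200, had 11.44, 11.58 and 11.78 in GC B1-8 and 11.29, 11.43 and 11.45 in GC V23, against 11.63, 11.44, 11.43 and 11.45 in naive samples (1426823_s_at), with a difference of 0.007 ± 0.091. Its further bright probe sets differed by 0.13 (1452211_at) and 0.29 (1426824_at). The latter did not overlap, at 10.14 to 10.4 in GC and 9.88 to 9.99 in naive samples. The dim probe sets of Psme4 were lower in GC cells, with differences of −1.61 to −0.73.

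Between the GC lines no proteasome gene was called. Over all genes, 0.00581% were called higher and 0.0174% lower in GC B1-8 than in GC V23. At an unadjusted p under 0.05 there were 4 of the 47 genes, and 1328 of all genes. The 3 with the smallest unadjusted values were Psmd13 (−0.25 ± 0.09), Psmb5 (−0.30 ± 0.11) and Psmd7, a lid subunit (−0.34 ± 0.14), with adjusted p of 0.56, 0.57 and 0.62 in limma's test. Psmd7 had 9.82, 10.27 and 10.14 in GC B1-8 against 10.25, 10.51 and 10.50 in GC V23, and 9.58, 9.66, 9.74 and 9.59 in naive samples. Over the 31 constitutive subunits, 26 had lower and 5 higher means in GC B1-8, from −0.34 to 0.06. Of all 17204 genes, 8757 were higher in GC B1-8, with a median difference of 0.005. The subunits were measured on the same arrays and are not independent observations. The 95% confidence intervals of the 31 subunits reached from −0.65 to 0.42, with a median width of 0.23 to either side. The mean over these subunits did not overlap between the lines (12.08 to 12.17 in GC B1-8, 12.18 to 12.28 in GC V23). No test is given for this mean. Array medians were on average higher in GC B1-8 and overlapped, at 6.76 to 6.85 in GC B1-8 and 6.70 to 6.77 in GC V23. With median centring, the median difference between the lines over the 47 genes was −0.138, against −0.076 without it. Over all genes it was −0.057, against 0.005.

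Each gene above is represented by its brightest probe set, and 26 of the 47 genes have further ones, 53 in all. Of 26 further probe sets averaging above log2 8, 20 were higher in GC cells and 5 lower. Among these 5, that of Psma1 (1458292_at) fell most, by 1.14, at 7.44 to 8.2 in GC and 8.65 to 9.2 in naive samples. Of 27 dimmer probe sets, 11 were higher and 16 lower. For some genes the dim probe sets fell far below naive: those of Psma1 averaged 6.73 in GC and 8.02 in naive samples (1436770_x_at) and 5.28 in GC and 6.90 in naive samples (1436769_at), one of Psmd7 (1432820_at) averaged 6.64 in GC and 8.71 in naive samples, and one of Psmd9 (1447670_at) averaged 4.62 in GC and 7.51 in naive samples. With all probe sets of a gene averaged, 28 of the 47 genes were called higher in both lines together and 6 lower, with a median of 0.44. Over all 16971 genes tested in this setting, 3074 were called higher and 3326 lower, with a median of 0.056. The 6 proteasome genes called lower were Psma1, Psma3, Psma6, Psmd7, Psmd9 and Psme4. Their brightest probe sets had differences of 0.007 (Psme4) to 0.79 (Psmd9). Psmg3 turned to −0.63 without a call (adjusted p = 0.074), and the calls of Psmc1 (0.74, adjusted p = 0.11) and Psme3 (0.29, adjusted p = 0.46) were lost. Calls were gained for Psmc4 (0.39, adjusted p = 0.011), Psmd6 (0.34, adjusted p = 0.0076) and Psmd11 (0.40, adjusted p = 0.0038). The values of Psmd2, Psmd4 and Psmf1 came to 0.41, 0.48 and 0.24. Psmb2, Psmb5, Psmb6, Psmb7 and Psmb9 have no further probe set, and the second one of Psmb8 (1444619_x_at) was higher by 0.74.

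Partners of the proteasome were counted from a list of 24 gene symbols, of which 17 had a probe set of their own. The list includes older symbols of Sem1 (Shfm1) and Ecpas (Ecm29 and AI314180), which are not separate genes. Of these, 10 were called higher in both GC lines together and 4 lower (over all genes, 20.5% and 21%). Pomp, the maturation chaperone of the core, ranged from 12.6 to 12.8 in GC B1-8 and from 12.6 to 12.7 in GC V23, against 11.7 to 11.9 in naive samples (0.83 ± 0.08, adjusted p = 4.4e-05). The small lid subunit Sem1 rose by 0.51 ± 0.09 and the deubiquitinase Uchl5 by 0.77 ± 0.13. The transcription factors known to drive constitutive subunit genes moved in the opposite direction. Nfe2l1 was at 9.92 to 10.2 in GC B1-8 and 9.86 to 10.1 in GC V23, against 10.5 to 10.7 in naive samples, and fell by 0.55 ± 0.09 (adjusted p = 0.00087). Nfe2l2 fell by 0.65 ± 0.12 (adjusted p = 0.0024), a call lost with all probe sets averaged (0.062). Vcp, the segregase that feeds the proteasome, rose by 0.61 ± 0.06 on its brightest probe set and turned to −0.56 with its probe sets averaged.

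Genes of class I loading and interferon signalling, which share regulators with the inducible subunits, were called lower more often than higher in GC cells: of 15 listed genes 14 were tested, and in both lines together 2 were called higher and 7 lower (over all genes, 20.5% and 21%), with a median log2 fold change of −0.35. With the lines combined, Nlrc5, the transactivator of class I genes, fell most, at 8.56 to 9.28 in GC B1-8 and 7.48 to 8.34 in GC V23, against 10.6 to 10.9 in naive samples (−2.35 ± 0.19, adjusted p = 2.5e-05). Irf9 fell by 2.20 ± 0.08, and in GC B1-8 alone its difference (−2.06) exceeded that of Nlrc5 (−1.83). Irf7 fell by 1.30 ± 0.14 and Irf1, an activator of Psmb9, by 0.99 ± 0.09. Of the loading genes, Tapbp fell by 0.93 ± 0.07 and the class I light chain B2m by 0.59 ± 0.07. The 2 called higher were the loading gene Tap2 (0.315 ± 0.075, adjusted p = 0.0093) and Irf8 (0.283 ± 0.082, adjusted p = 0.022). Erap1 was not called (−0.189, adjusted p = 0.11). Tap1, whose start adjoins that of Psmb9, was at 11.5 to 11.7 in GC B1-8 and 11.1 to 11.4 in GC V23, against 11.7 to 12.0 in naive samples. It fell by 0.44 ± 0.10 (adjusted p = 0.0064) on its brightest probe set, while Psmb9 rose. With its dim probe sets averaged in, its difference turned to 0.21, and without naive replicates 2 and 4 its adjusted p was 0.080. Of 6 ubiquitin and E1 genes listed, Uba6 was the one tested, and it was not called (0.07, adjusted p = 0.80).

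**Figure D4:**
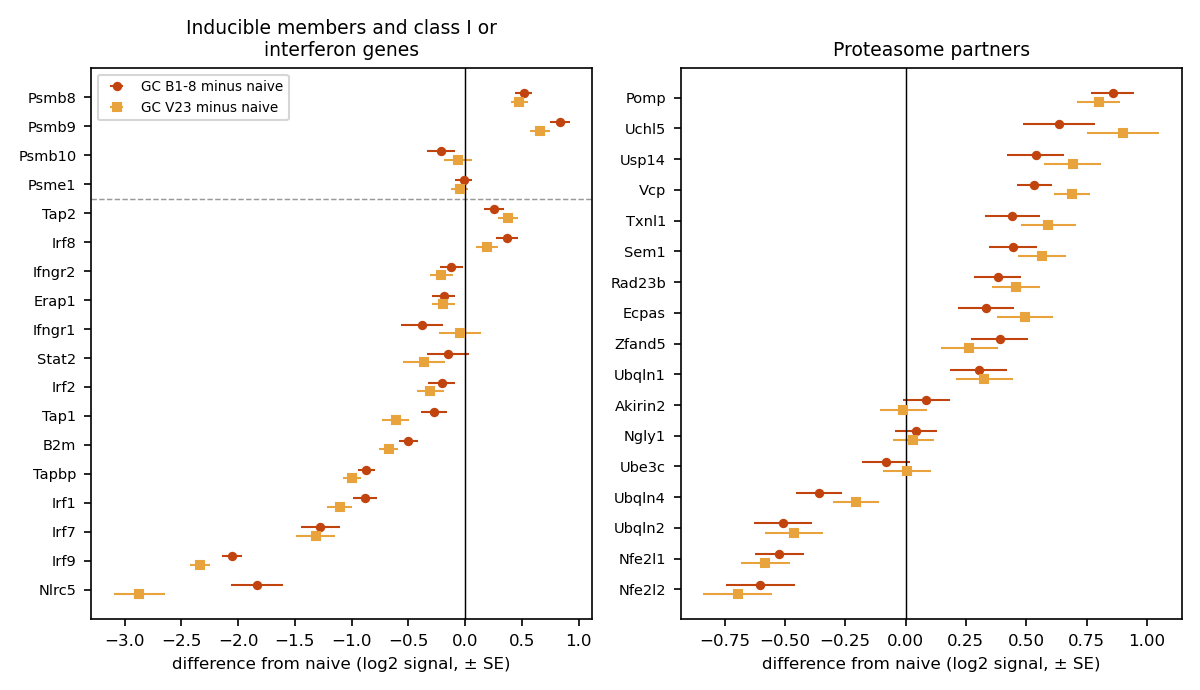
Difference from naive B cells (log2 signal, points, with bars for ± standard error) for GC B1-8 minus naive (circles) and GC V23 minus naive (squares). Left: the 4 inducible proteasome genes above the dashed line, and class I and interferon genes under it; right: proteasome partners. Psmb8 and Psmb9 lie right of 0, while Nlrc5, Irf9, Irf7 and Irf1 lie farthest left; among partners Pomp lies right and Nfe2l1 and Nfe2l2 left of 0.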

How the data were processed

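The values used are log2 probe set signals that the authors deposited, 1 column per array (Affymetrix mouse whole-genome arrays, biotin-labelled cRNA, per the labels' protocols). GCRMA is named, without a version, per the submitters' processing notes. The deposited log2 values look different from GCRMA output: arrays share neither quantiles nor a floor, values range from −4.29 to 14.88, and the mean unlogged signal, trimmed by 2% at each end, is 500 throughout, as for arrays scaled to a target. No further normalization was applied, and low values carry little order. Arrays give no counts, so their number limits the precision.

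Of 45101 probe sets, 34958 have 1 gene symbol in the platform annotation, 932 several and 9211 none. The brightest such probe set on average stood for each of 18194 genes. Genes had to exceed log2 4 in 3 or more samples, which 17204 did. Group means were fitted over all 10 arrays with limma 3.58.1 in R 4.3.3 (lmFit, eBayes without trend, two-sided, 7 residual and 1.46 prior degrees of freedom), with Benjamini-Hochberg adjustment over all genes per comparison. The test was first run on simulated data. Fold changes carry standard errors and levels give each array. Exchange pairs were tested with exact permutations.

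All measured proteasome genes may be named. Values in every sample are given for the catalytic, inducible and activator genes, for the 4 highest and 4 lowest log2 fold changes (both lines against naive) among the other genes, and for the 3 smallest p between the lines; partners and regulators come from fixed lists. Genes, lists and tests were chosen with earlier results of these data known. Alternatives were the probe set rule, filters, median centring, quantile normalization, a floor, moderation, array weights, the samples fitted, the replicate number as a block, each sample left out, and naive replicates 2 and 4 left out together. Figures were drawn with matplotlib 3.10.9.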

Additional observations from a re-analysis of the deposited data

Results flagged for a closer look

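In 2 of the 47 proteasome genes, 1 naive sample lay far from the other 3, by Dixon's gap test at the 95% level. Psmd11 was at 12.30 in naive replicate 4, against 12.41 to 12.43 in the others, a gap of 0.87 of the group's range. Psme4 was at 11.63 in naive replicate 1, against 11.43 to 11.45 in the others, a gap of 0.881 of the range. Chance alone marks about 1 in 20 groups, so 2 of 47 is no more than chance gives. The GC groups, with 3 samples each, were not tested in this way.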

How the results depend on the processing

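The counts of proteasome genes called higher stayed within 1.5 times of those reported in all 21 alternatives, as did the absence of calls between the lines. Of 1427 values of single genes under an alternative, 1349 kept their direction and their side of the threshold, 24 lost a call, 28 gained 1 and 26 turned direction. The counts called lower are small and moved. With all probe sets averaged they were 3 in GC B1-8, 5 in GC V23 and 6 in both lines together. Over all 16971 genes of that setting, 2547, 3110 and 3326 were called lower. The proteasome count in both lines together was 0 with median centring and 0 without naive replicates 2 and 4. In GC B1-8 it was 0 in both cases and 0 with the replicate block. In GC V23 there was 1 with a filter at log2 6, 1 with quantile normalization and 1 with an intensity trend. Leaving out 1 sample gave 0 to 1 in GC B1-8 (0 without naive replicate 1 or 3 or GC B1-8 replicate 2), 0 to 1 in GC V23 (1 without GC V23 replicate 2) and 1 to 2 in both (2 without GC B1-8 replicate 1). Averaging probe sets turned, in both lines together, Psma1 (−0.918), Psma3 (−0.916), Psma5 (−0.443), Psma6 (−0.265), Psmd7 (−0.382), Psmd9 (−0.663), Psme4 (−0.518), Psmg3 (−0.625) and Psmg4 (0.006), and between the lines Psmd13 (0.068). Quantile normalization turned Psma5 (−0.006), Psmc4 (−0.097) and Psme4 (−0.074), median centring Psme1 (0.069) and, in GC V23, Psmb10 (0.07), and leaving out naive replicates 2 and 4 Psmc4 (−0.091), Psme1 (0.022) and Psme4 (−0.034). Leaving out 1 sample gave −0.015 to 0.149 for Psmc4 and −0.038 to 0.055 for Psme4. Among the pairs, Psmb8 minus Psmb5 lost its call with averaged probe sets (−0.182) and without naive replicates 2 and 4 (−0.271), and ranged from −0.357 to −0.237 with 1 sample left out. Psmb9 minus Psmb6 lost it with averaged probe sets (0.269), quantile normalization (0.188) and without those 2 samples (0.337), and ranged from 0.219 to 0.325. Psmb10 minus Psmb7 lost it without those 2 samples (−1.062), where 28 splits remain. With averaged probe sets the number of genes tested changed as well, to 16971. Psmb6, which has 1 probe set, moved from an adjusted p of 0.00071 to 0.0015 in limma's test. The adjusted p of Psmb9 minus Psmb6 moved through the adjustment over the pairs. For other lost or gained calls the cause was not tested. Median centring moved the median of all genes in GC V23 to 0.192, against 0.062, and its calls over all genes to 3824 higher and 2536 lower, against 3127 and 3386. The deviations of same-numbered samples showed little correlation (r of −0.019 to 0.072). Whether the replicate numbers pair samples in the experiment was not tested. With the replicate block, 27, 32 and 32 genes were called higher in GC B1-8, GC V23 and both lines, 0, 0 and 1 lower, and Psme4 turned to −0.005. Among genes near the threshold, Psmc2 gained a call without GC B1-8 replicate 3 or GC V23 replicate 1, Psmd5 without GC V23 replicate 2 and Psmd6 without GC V23 replicate 1. Signal over background limits Psma8 and Psmb11.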
